A study of Zea mays with 12 samples.

Results

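The comparison set leaves of the maize mutant stock zmcryq against leaves of the inbred line B73, both kept in darkness. It compared 6 of the 12 libraries of the series, 3 per genotype, picked by their labelled genotype and treatment, while the low-value filter, the scaling and the spread of each gene were taken from all 12. The zmcryq dark group carried the genotype that the labels call zmcryq mutant, and the B73 dark group the one they call wild type. All seedlings were labelled as 7 days old. They had grown in white light of long days, then stood in the dark for 48 h, and these 6 libraries received 0 h of blue light. The other 6 libraries, 3 zmcryq and 3 B73, received blue light for 1 h after the same dark period, and served here as a second set of libraries in which the genotypes differ. The labels name no allele, gene or line history for zmcryq, and do not say that the mutant shares the B73 background. Whether the 3 libraries of a group stem from different seedlings is not stated, so each p-value speaks of the spread among these libraries, part of which may be technical.

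Cryptochromes are flavin-binding receptors of blue light, related to the DNA repair enzymes called photolyases. In the dark they are held to be inactive. In light they bind the COP1 and SPA proteins, which otherwise send light-signalling transcription factors such as HY5 to degradation, and they also meet PIF factors that drive elongation. In seedlings this pathway is known, mostly from Arabidopsis, for short stems, greening and the setting of the circadian clock. The dark comparison asks how far leaves of the 2 genotypes differ with no blue light given.

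The deposited table gave 44303 gene IDs with 1 value per library, read as FPKM (fragments scaled to transcript length and library size). The maize gene table at hand held 0 of them, so genes are given by ID, at most 2 higher and 2 lower. The cryptochrome genes, leaf markers and gene lists for light signalling, the clock, photosynthesis and pigments are written as names, and were not analysed here. The loss of the targeted genes and the tissue label were therefore not checked in these libraries. In bulk leaf RNA, fewer cells of a type and less RNA per cell cannot be told apart.

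Totals ran from 607221 to 725133 FPKM in the zmcryq dark libraries and from 683326 to 788554 FPKM in the B73 dark libraries. Each library was divided by its median-ratio factor, the median of its ratios to the geometric mean over 19555 genes. These factors ran from 0.507 (replicate 1) to 1.08 (replicate 2) in zmcryq dark and from 0.993 to 1.16 in B73 dark. After scaling, 18764 to 18859 genes stood at 1 FPKM or more in the zmcryq libraries and 18571 to 18690 in the B73 libraries. The table gives no fragment counts. Among genes of low level, the commonest ratio to B73 dark replicate 1 was 0.648 in zmcryq dark replicate 1. It was 0.983 in zmcryq dark replicate 2 and 0.798 in replicate 3. In B73 dark it was 0.949 to 0.983, where 0.983 is also the value of B73 dark replicate 1 against itself. If the values are FPKM and these genes rest on single fragments, the ratio gives the relative worth of 1 fragment. That was not checked. The highest single gene took 7.99%, 2.45% and 5.39% of the total in zmcryq dark replicates 1 to 3 and 2.71% to 3.01% in B73 dark. Across tested genes, which are not independent replicates, the Pearson correlation on the log2 scale was 0.973 to 0.978 among the zmcryq dark libraries and 0.95 to 0.984 among the B73 dark libraries. B73 dark replicate 3 stood apart from its group, at 0.955 and 0.95 with replicates 1 and 2, while these correlated at 0.984 with each other. Between the genotypes the correlations were lower, at 0.849 to 0.869.

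About equal numbers of genes were higher and lower in zmcryq. Of 21472 genes tested, those at 1 FPKM or more in at least 3 of the 12 libraries, 5384 were higher in zmcryq (25.1% of tested genes) and 5298 lower (24.7%). Together they were 49.7% of tested genes. With the 6 dark libraries alone in the fit, 4054 were higher and 4401 lower. A gene was called when its limma adjusted p was under 0.05, and differences are zmcryq minus B73 on the log2(scaled FPKM + 1) scale. Scaling by median ratios sets the median difference near 0 (0.03) by construction, so the near-equal counts do not show a balanced difference. Without scaling the median was -0.38, with 971 genes higher and 3106 lower, 23.8% of calls higher against 50.4% after scaling. The 3 zmcryq values lay above the 3 B73 values in 6059 genes (28.2%) and below them in 5847 (27.2%).

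With the main scaling and pseudocount, most of the called differences were under 2-fold. Differences under 1.5-fold made up 34.3% of the calls, and those of 1.5 to 2-fold another 33.3%. This depends on the settings. Without scaling, 813 of 971 higher and 2854 of 3106 lower calls were of 2-fold or more. With a pseudocount of 0.1 in place of 1 they were 2262 of 5324 and 2662 of 5376. The counts that follow are those of the main settings. Calls of 2-fold or more numbered 1605 higher (7.47% of tested genes) and 1866 lower (8.69%), together 16.2%. Of these, the genotypes did not overlap in 1582 of the higher and 1850 of the lower genes, a count that the calls nearly fix. Among the larger differences, 387 genes were 4 to 16-fold higher and 444 lower, and 96 were 16-fold or more higher and 73 lower. The median 2-fold higher gene stood at 9.77 scaled FPKM in zmcryq and 1.63 in B73. The median 2-fold lower gene stood at 2.58 in zmcryq and 12.4 in B73. Leaving out B73 dark replicate 3 gave 1618 and 1998 genes of 2-fold or more, and leaving out zmcryq dark replicate 1 gave 1674 and 1866. Of the 3471 calls of 2-fold or more, 3265 were made again in the same direction without zmcryq dark replicate 1, and 0 in the opposite direction.

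**Figure D1:**
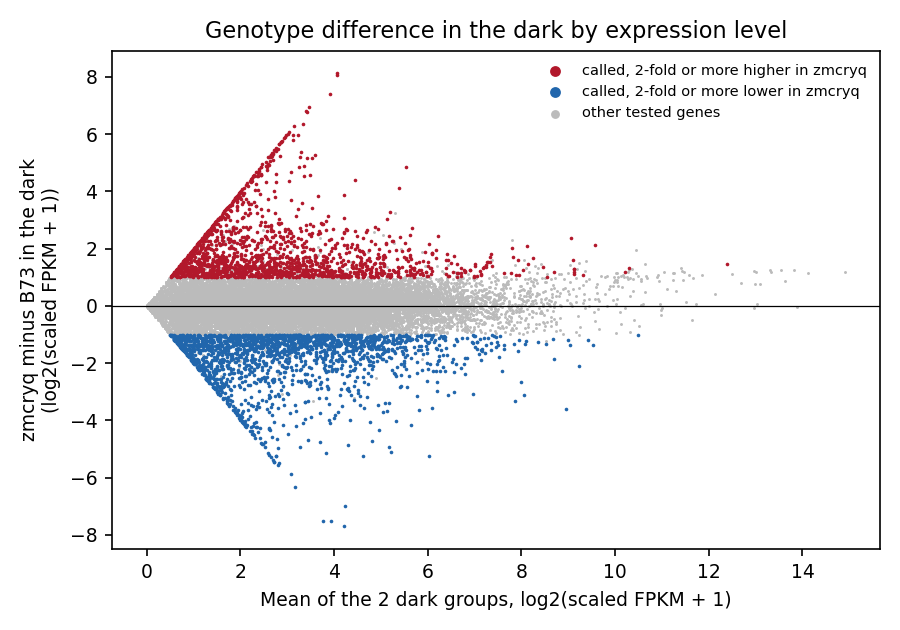
Each point is 1 tested gene. The x axis is the mean of both dark groups in log2(scaled FPKM + 1), and the y axis is zmcryq minus B73 on that scale. The 1605 genes called 2-fold or more higher (red) and the 1866 lower (blue) occur at low and high levels, and the slanted edges are genes near 0 in one genotype.

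These genes held a small part of the transcript pool, and their shares differ by genotype as their selection requires. The 2-fold higher genes took 5.18%, 9.12% and 7.03% of the deposited total in zmcryq dark replicates 1 to 3. They took 3.4%, 3.25% and 2.2% in B73 dark replicates 1 to 3. The 2-fold lower genes took 1.68%, 2.89% and 2.16% in zmcryq and 9.91%, 9.77% and 9.94% in B73. The share of the lower genes was close to equal in the 3 B73 libraries, and the share of the higher genes varied more in zmcryq. These shares do not depend on the scaling, since they are taken within a library, but the choice of the genes does.

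Differences of 2-fold or more were found at every level of expression. Tested genes were split into 4 classes of 5368 genes by their mean level over all 12 libraries, those of blue light included. Class 1, up to 2.37 scaled FPKM, held 575 genes 2-fold or more higher and 476 lower, 19.6% of the class. Class 2 held 510 higher and 523 lower (19.2%). Class 3, from 7.28 to 18.6 scaled FPKM, held 272 higher and 412 lower (12.7%), and class 4, the most abundant genes, 248 higher and 455 lower (13.1%). Lower genes thus outnumbered higher ones in classes 3 and 4, and higher ones outnumbered lower ones in class 1. Whether this order holds beyond chance was not tested. With a pseudocount of 0.1 in place of 1 the share was 37.5% in class 1 and 13.7% in class 4. Among the 200 tested genes most abundant by mean level over all 12 libraries, 32 were called higher and 35 lower. At 2-fold or more, 13 were higher and 10 lower (11.5% of the 200).

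Genes above 1 FPKM in both genotypes could also differ widely. Of 16152 genes at 1 scaled FPKM or more in all 6 dark libraries, 814 were 2-fold or more higher and 1139 lower, 12.1% in all. Differences of 16-fold or more were 2 higher and 11 lower there, against 96 and 73 among all tested genes. The largest differences therefore came mostly from genes near or at 0 in one genotype.

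Zm00001eb124270 had the largest gain among genes measured in all 6 dark libraries, with 232, 245 and 255 scaled FPKM in zmcryq, against 8.36, 9.04 and 5.71 in B73. Every zmcryq value was far above every B73 value. The means were 244 ± 11.2 in zmcryq and 7.7 ± 1.76 in B73 (SD, n = 3 each), a ratio of 31.7. Its log2 difference was 4.84 ± 0.16 (SE), with a limma adjusted p of 6.5e-10, and it stayed called in each of 21 alternatives, from 4.3 to 4.99. The next largest gain in this set was 4.1 on the log2 scale.

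Zm00001eb312080 had the largest loss in the same set. It stood at 8.24, 10.6 and 9.79 scaled FPKM in zmcryq, against 437, 395 and 359 in B73. The groups lay far apart with little spread inside either. The means were 9.55 ± 1.21 in zmcryq and 397 ± 39.3 in B73 (SD, n = 3 each), so that B73 had 41.5 times the level of zmcryq. Its log2 difference was -5.24 ± 0.12 (SE), with a limma adjusted p of 3.7e-11, and ran from -5.71 to -4.79 over the 21 alternatives, all called.

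By amount of transcript, Zm00001eb217560 had the largest gain among the 2-fold calls. Its values were 7900, 8142 and 8410 scaled FPKM in zmcryq, against 4486, 4737 and 1226 in B73. The groups did not overlap, but B73 dark replicate 3 lay far below the other B73 libraries. The means were 8151 ± 255 in zmcryq and 3483 ± 1959 in B73 (SD, n = 3 each). The log2 difference of Zm00001eb217560 was 1.46 ± 0.45 (SE), with a limma adjusted p of 0.019. Without B73 dark replicate 3 it was 0.82 (limma adjusted p 0.0064), with array weights 0.9, and without B73 dark replicate 2 it was 1.79. The call was lost without scaling (0.93, limma adjusted p 0.34), under quantile normalization (0.91, limma adjusted p 0.32) and in the 6 dark libraries alone (1.45, limma adjusted p 0.079). Without zmcryq dark replicate 2 (1.46, limma adjusted p 0.051) or 3 (1.44, limma adjusted p 0.052) the difference stayed as large while the adjusted p lay just above 0.05.

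Zm00001eb206040 had the largest loss in amount, with 141, 123 and 141 scaled FPKM in zmcryq, against 1379, 1182 and 2780 in B73. The zmcryq libraries were close together, and B73 dark replicate 3 was the highest of its group. Its means were 135 ± 10.5 in zmcryq and 1781 ± 871 in B73 (SD, n = 3 each), with B73 at 13.2 times the level of zmcryq. The log2 difference was -3.61 ± 0.28 (SE), with a limma adjusted p of 1.1e-06, and ran from -4.14 to -3.24 over 21 alternatives, all called.

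**Figure D2:**
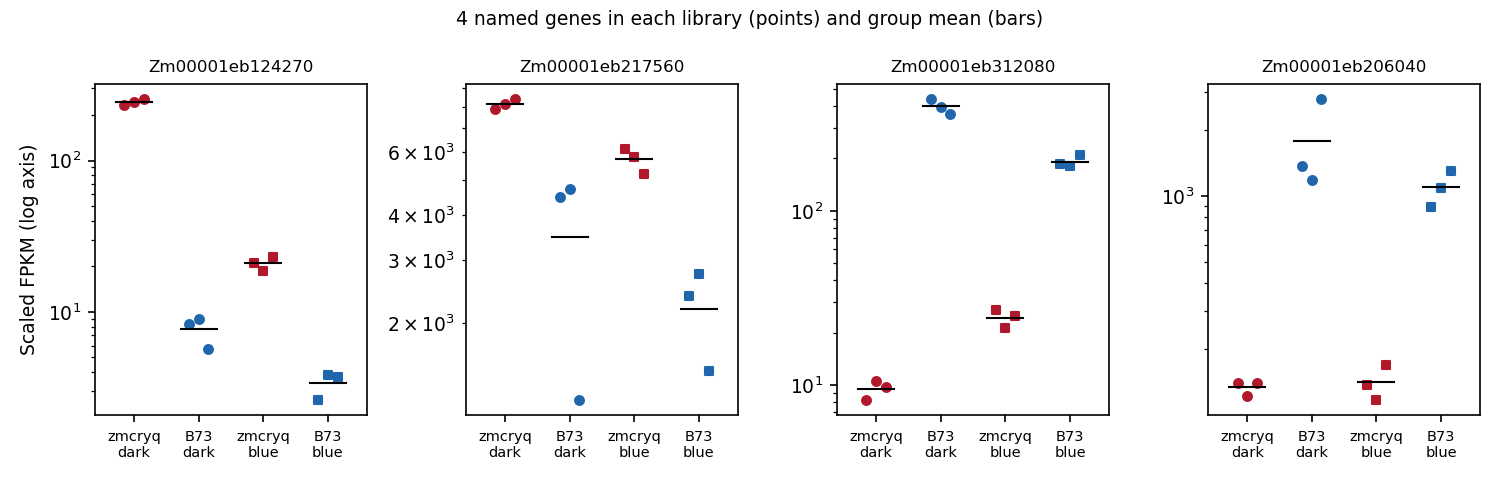
Scaled FPKM (log axis, a range of its own per panel) of the 4 named genes in each library (points, circles for dark and squares for blue light) with the group mean (bar). The zmcryq dark libraries of Zm00001eb124270 lie between 232 and 255, and all B73 dark libraries at or below 9.04.

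A further group of genes was listed in one genotype and at 0 in the other. In the dark, 195 genes stood at 1 scaled FPKM or more in each zmcryq library and were listed at 0 in each B73 library. For another 132 genes the genotypes were the other way round. A listed 0 may also be a value below what the authors' tool reported, so no fold change is given. The zmcryq genes had a median level of 5.25 scaled FPKM and reached 278, with 61 of them averaging 10 or more. The B73 genes had a median of 4.83 and reached 183, with 37 averaging 10 or more. Of the 195 and 132, 191 and 132 were among the tested genes, a filter that their own level in one genotype lets them pass. Each of those was called, which their selection nearly fixes, against 49.7% of all tested genes, so nothing is read from that count. With a minimum of 5 FPKM in place of 1, the counts were 82 and 47.

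The blue-light libraries, whose values did not enter the choice of these genes beyond the scaling, gave a second reading of them. Of the 195 genes listed in zmcryq alone in the dark, 120 (61.5%) showed the same pattern under blue light and 0 the opposite one. They were 65.9% of the 182 genes with that pattern under blue light. At 0 in all 3 B73 blue libraries were 150 of the 195. Of the 132 genes listed in B73 alone in the dark, 67 (50.8%) kept the pattern under blue light, and 1 had the opposite one. They were 48.9% of the 137 such genes under blue light, and 100 of the 132 were at 0 in all 3 zmcryq blue libraries.

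The wider set of dark differences was also seen in the blue-light libraries. Of the 1605 genes 2-fold or more higher in the dark, 1326 (82.6%) were called higher in zmcryq under blue light, where 26.9% of all tested genes were, and 37 were called lower. Of the 1866 genes 2-fold or more lower in the dark, 1611 (86.3%) were called lower under blue light, where 28.1% of all tested genes were, and 26 were called higher. These calls under blue light are of any size. At 2-fold or more in the same direction there were 992 of the 1605 and 1217 of the 1866, where 8.9% and 12.6% of all tested genes were. The median log2 difference was 1.24 under blue light and 1.51 in the dark for the higher genes, and -1.41 and -1.49 for the lower genes. Over the 3471 genes, dark and blue-light differences correlated at a Pearson r of 0.878 and a Spearman rho of 0.863, and over all 21472 tested genes at 0.72 and 0.662. The points share the gene, the scaling and, for the choice of genes, the spread estimated over all 12 libraries, but no library enters both differences. In the reverse direction the shares were lower. Of the genes 2-fold or more higher under blue light, 77.9% were called higher in the dark, where 25.1% of all tested genes were. For the lower ones the share was 70.2%, where 24.7% of all tested genes were called lower.

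**Figure D3:**
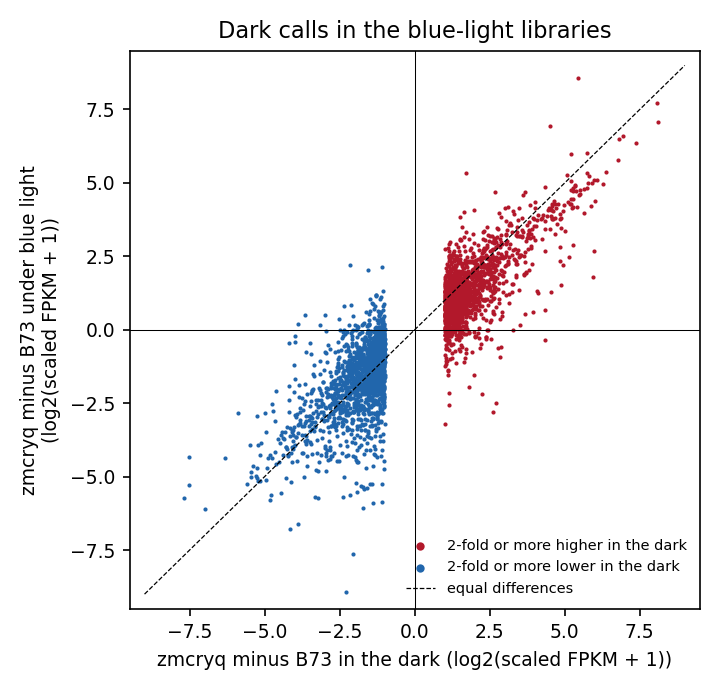
Genotype difference under blue light (y axis) against that in the dark (x axis), zmcryq minus B73 in log2(scaled FPKM + 1), for the genes called 2-fold or more higher (red) or lower (blue) in the dark. Most points keep their sign, and 37 higher and 26 lower genes were called in the other direction under blue light.

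A test of the change itself, the blue-light difference minus the dark difference, called 25.8% of all tested genes in either direction. Smaller stands below for a change against the direction of the picked difference, so a difference that reversed is also counted as smaller. Among the 1605 genes higher in the dark, the difference was called smaller under blue light for 484 (30.2%) and larger for 88 (5.48%). Among the 1866 lower genes it was called smaller for 467 (25%) and larger for 301 (16.1%). The genes were picked for a large difference in the dark, and the choice of condition matters. Picked under blue light instead, 1910 genes were 2-fold or more higher (8.9% of tested genes). Their difference in the dark was called smaller for 634 (33.2%) and larger for 167 (8.74%). For the 2715 genes 2-fold or more lower (12.6%) it was called smaller in the dark for 1494 (55%) and larger for 129 (4.75%).

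Of the named genes, Zm00001eb124270 differed by 2.33 ± 0.16 (SE) on the log2 scale under blue light, where it averaged 20.9 scaled FPKM in zmcryq and 3.39 in B73. Its difference was smaller by -2.51 ± 0.22 (limma adjusted p 1.3e-05). Zm00001eb312080 averaged 24.4 scaled FPKM in zmcryq and 192 in B73 under blue light, and its log2 difference of -2.93 ± 0.12 was nearer 0 by 2.31 ± 0.18 (limma adjusted p 3.8e-06). Zm00001eb217560 and Zm00001eb206040 differed under blue light by 1.42 ± 0.45 and -2.95 ± 0.28. Their changes of -0.04 ± 0.64 and 0.66 ± 0.4 did not pass the test (limma adjusted p 0.98 and 0.26).

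Genes 2-fold or more lower in zmcryq were spread unevenly along the order of gene IDs, with a wider range of counts than genes 2-fold or more higher. These values are a description, with no test. As background, IDs of this maize annotation are numbered in order along the chromosomes, and no annotation was used here to place them. Tested genes were counted in 42 successive windows of 500 IDs, which take no account of chromosome ends and leave out the last IDs. Genes 2-fold or more lower in zmcryq in the dark ranged from 15 to 86 per window with a median of 44, a 5.73-fold range. Genes 2-fold or more higher ranged from 26 to 52 with a median of 36.5, a 2-fold range. The richest window held 86 lower and 43 higher genes, and the poorest in lower genes held 15 lower and 38 higher.

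**Figure D4:**
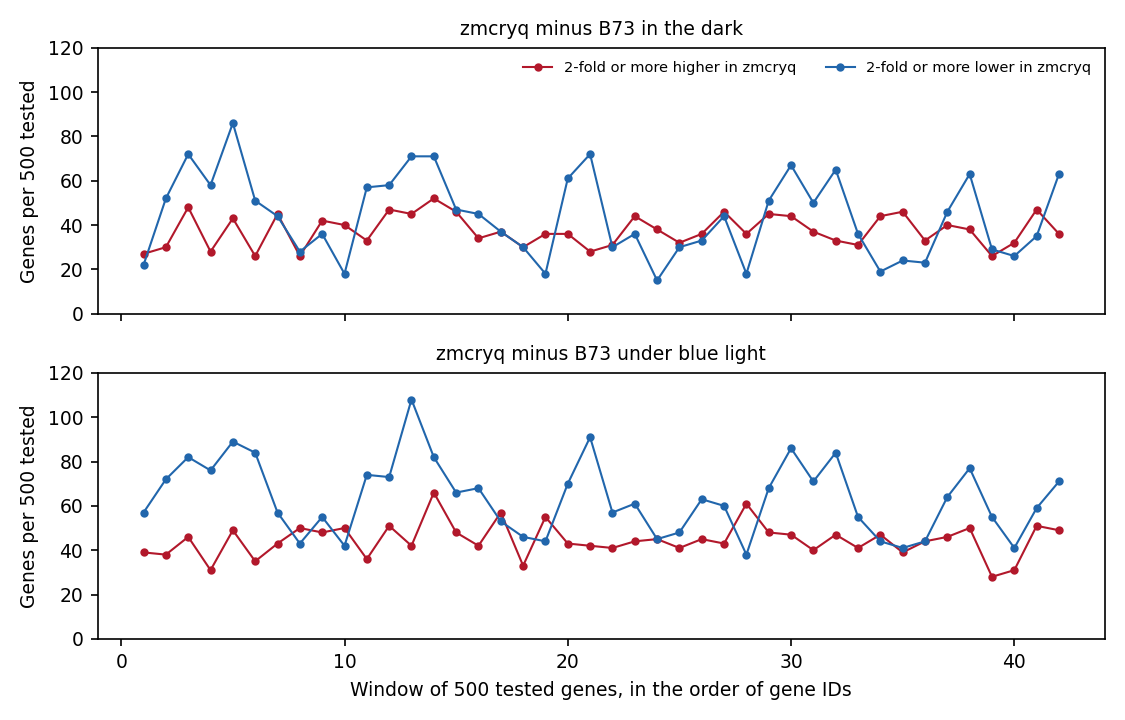
Number of genes 2-fold or more higher (red) or lower (blue) in zmcryq per window of 500 tested genes, in the order of gene IDs, in the dark (upper panel) and under blue light (lower panel). The count of lower genes in the dark runs from 15 to 86 and follows the same course under blue light, while that of higher genes in the dark runs from 26 to 52.

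The blue-light libraries gave the windows in nearly the same order for lower genes. Counts of lower genes in the dark and under blue light correlated at a Pearson r of 0.924 and a Spearman rho of 0.936 over the 42 windows, and counts of higher genes at 0.541 and 0.543. The windows share their genes, expression levels, scaling and the spread of each gene, which 1 fit took from all 12 libraries, between the 2 readings. Under blue light, lower genes ranged from 38 to 108 per window and higher genes from 28 to 66. Mean expression level moved only a little with the count of lower genes in the dark, at a Pearson r of -0.255 and a Spearman rho of -0.263. Its own neighbour correlation, in finer blocks, is given with the others.

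In blocks of 50 tested IDs, of which there were 429, the share of genes 2-fold or more lower in the dark in a block correlated with that in the next block at 0.411. For higher genes this value was 0.02. Under blue light the same values were 0.301 for lower and -0.001 for higher genes. For the 2-fold blue-light response of B73, which took in 18.2% of tested genes, the neighbour correlation was 0.061 for genes raised and 0.042 for genes lowered. Mean expression level itself had a neighbour correlation of 0.343. For 2-fold calls in either direction in the dark the value was 0.376, and 0.374 after the mean share of each gene's level class was taken off. It was 0.346 without the genes listed in one genotype alone. At a distance of 2 blocks the value for lower genes was 0.33, at 5 blocks 0.145 and at 20 blocks 0.006. Over 15 alternatives, 6 of them leaving out a dark library, the neighbour correlation of lower genes ran from 0.324 to 0.444 and that of higher genes from -0.044 to 0.082. What sets this pattern was not tested.

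Shares around single genes fell off with distance in a similar way. Next to a gene 2-fold or more lower in zmcryq in the dark, 16.5% of tested genes were also 2-fold or more lower, against 8.69% of all tested genes. At 10 IDs away the share was 11.2%, at 50 IDs 9.66% and at 500 IDs 8.53%. Next to a gene 2-fold or more higher, 12.6% were also higher, against 7.47% of all, but at 2 IDs away the share was 8.29% and at 5 IDs 6.36%. For higher genes the share thus stood well above that of all tested genes at the adjacent ID, and near it from 2 IDs on. Fragments of near-identical, overlapping or antisense genes cannot be told apart in these values. Next to a higher gene, 8.41% of tested genes were 2-fold or more lower, close to the 8.69% of all.

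**Figure D5:**
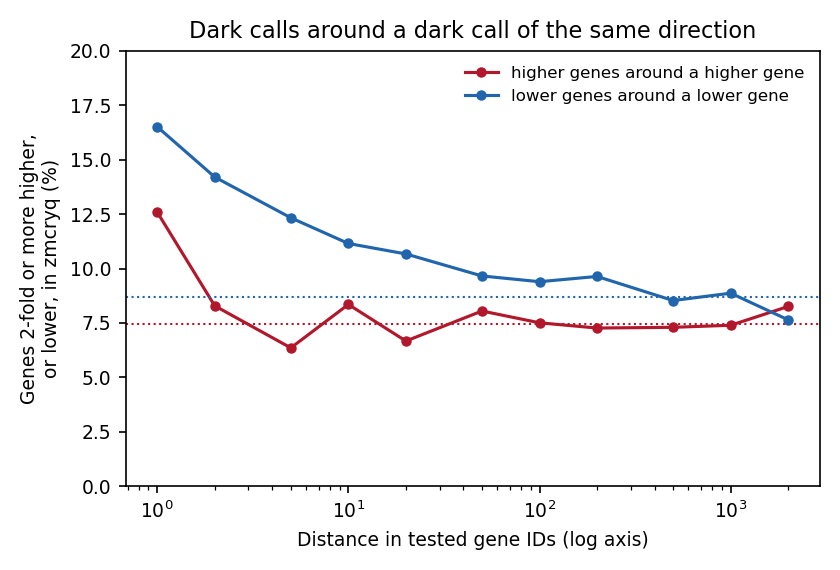
Share of tested genes 2-fold or more higher around a higher gene (red) and 2-fold or more lower around a lower gene (blue), in percent, at distances of 1 to 2000 tested IDs (log axis). Dotted lines are the shares over all tested genes, 7.47% and 8.69%. The share for lower genes starts at 16.5% and is 9.4% at 100 IDs and 8.53% at 500, while that for higher genes is near its line from 2 IDs on.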

How the data were processed

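The deposited table of leaf mRNA holds 1 value per gene and library and 4 columns of group means by the authors, which were not used. The deposited values were taken to be FPKM from their decimals, their unequal totals and Cufflinks in the submitters' processing notes, since the unit is stated nowhere. Beside Cufflinks those notes list HISAT2 2.2.1.0, Bowtie2, TopHat, Trimmomatic 0.36 and DESeq 1.18.0, without their roles. Genome build, annotation release, strand use and the treatment of shared fragments: not given in the sources used here.

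Here, genes reaching 1 FPKM in 3 of 12 libraries were kept, libraries were divided by median-ratio factors, and limma 3.58.1 in R 4.3.3 was fitted to log2(scaled FPKM + 1) of all 12 libraries with 1 mean per group, trended and robust, with 2-sided tests and Benjamini-Hochberg adjustment over all tested genes. This scale understates the change of low genes. The fit was also run on simulated libraries with known changes in a small part of the genes. These were drawn from the fit's own levels and spreads, so that run does not check the scaling where many genes differ. The named genes are the highest and lowest difference among called genes at 1 FPKM or more in all 6 dark libraries, and the called genes of 2-fold or more with the largest gain and loss in mean scaled FPKM. The comparison, lists and tests were chosen with earlier results of these data known, and the counts along the ID order split by direction, the test of the change with light and the set of 16152 genes were added after the data were seen. Alternatives covered scaling, pseudocount, filter, fewer libraries, array weights and a replicate block. No pair of the 12 libraries was identical (0 pairs).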

Additional observations from a re-analysis of the deposited data

Results flagged for a closer look

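Among the named genes, 2 had a genotype difference that itself differed between darkness and blue light, by the limma test of the change. For Zm00001eb124270 the blue-light difference minus the dark difference was -2.51 on the log2 scale (limma adjusted p 1.3e-05). The gene stood at 244 scaled FPKM in zmcryq dark and 20.9 in zmcryq blue, against 7.7 in B73 dark and 3.39 in B73 blue. For Zm00001eb312080 the change was 2.31 (limma adjusted p 3.8e-06), with 9.55 scaled FPKM in zmcryq dark and 24.4 in zmcryq blue, against 397 in B73 dark and 192 in B73 blue. Both genes were named for the size of their dark difference.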

How the results depend on the processing

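The counts of calls moved with the scaling, the filter and array weights, and those of 2-fold or more also with the pseudocount. With array weights, 7020 genes were higher and 6717 lower, with 1649 and 1988 at 2-fold or more. Without scaling, 971 genes were higher and 3106 lower, with 813 and 2854 at 2-fold or more, and 55.6% of the 2-fold calls were made the same way under blue light, against 84.6% after scaling. Of the 3471 scaled calls of 2-fold or more, 2668 were among the 3667 unscaled ones in the same direction and 0 in the opposite one. A pseudocount of 5 gave 700 and 878 genes of 2-fold or more, and a pseudocount of 0.1 a share of 78.5% called the same way under blue light and 37.5% of the lowest of 4 expression classes at 2-fold or more. Fitted on genes at 1 FPKM or more in all 6 dark libraries, a set added after the data were seen, 796 were 2-fold or more higher and 1146 lower. With a minimum of 5 FPKM, 82 genes were listed in zmcryq alone and 47 in B73 alone. By construction, a larger pseudocount shrinks the log2 differences, and a higher minimum can only shorten the lists of genes seen in one genotype. Why the share called the same way under blue light moved was not tested, nor was the cause of the libraries' differing factors.

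Leaving out each library in turn gave 4624 to 5830 genes higher, 4660 to 5616 lower, 1561 to 1676 higher and 1780 to 1998 lower at 2-fold or more, and a share of 81% to 85.6% called the same way under blue light. With a dark library left out, 215 to 229 genes were listed in zmcryq alone and 148 to 166 in B73 alone. Fewer libraries then have to meet the condition, so growth from 195 and 132 is largely set by construction. The replicate block gave 5327 genes higher and 5254 lower and changed no call of a named gene. Deviations of the libraries that share a number correlated at -0.11, 0.05 and 0.003 in the dark. The labels do not say whether the numbers pair the libraries, and with 3 libraries per group these values cannot settle it. Without fragment counts, the precision of single values is unknown, and 3 libraries per group limit all comparisons.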

Other observations

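Replicate spread was not the same in the zmcryq and B73 dark groups. The median gene had a within-group SD of 0.125 on the log2(scaled FPKM + 1) scale in zmcryq dark and 0.201 in B73 dark (n = 3 each), and the upper quartile stood at 0.207 in zmcryq dark and 0.331 in B73 dark. B73 dark replicates 1 and 2 correlated at 0.984 with each other, and replicate 3 at 0.955 and 0.95 with them. Whether replicate 3 alone makes the larger B73 spread was not tested. The fit used 1 spread per gene for all groups.

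Among genes listed in one genotype alone in the dark, 8 pairs of adjacent IDs were both listed in zmcryq alone and 5 pairs both in B73 alone. In 2 pairs, one gene was listed in zmcryq alone and its neighbour in B73 alone. Adjacent here means neighbours among all 44303 IDs, not among tested genes only. No base share was worked out for these pairs, so nothing is read from their counts.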
